A study of Mus musculus with 16 samples.

Results

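The genes described here are 10 genes of glutathione synthesis and of the NRF2 antioxidant response: Gclc, Gclm, Slc7a11, Gsr, Gpx2, Txnrd1, Srxn1, Nqo1, Hmox1 and Nfe2l2. They were chosen by name, because Gpx2 and Gclc were higher with TNF and less so after DEX in these same libraries. All 10 were among the 11809 genes with enough counts to be tested, of 55414 genes in the table. RNA was sequenced from Paneth cells, the antimicrobial secretory cells at the crypt base, sorted from the small intestine of individual C57BL/6J mice whose age is not given in the sources used here. The 16 libraries form 4 groups of 4, named by 2 injections. PBS+PBS mice received the PBS vehicle at both, PBS+TNF mice received PBS and then tumour necrosis factor (TNF), DEX+PBS mice received DEX and then PBS, and DEX+TNF mice received DEX and then TNF. The second injection followed the first by 1 h, and cells were taken 3 h after the second. DEX usually stands for dexamethasone, a synthetic glucocorticoid, although the sources used here leave it unexplained.

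Glutathione is a small thiol peptide that cells use to reduce peroxides and to tag reactive compounds for export. Glutamate-cysteine ligase makes its precursor and limits the rate of synthesis. This enzyme is a pair of a catalytic subunit (Gclc) and a modifier subunit (Gclm), and cysteine for it enters as cystine through the transporter Slc7a11. Many of these genes are targets of NRF2, the transcription factor encoded by Nfe2l2, which KEAP1 marks for degradation until an oxidant or electrophile blocks it. NRF2 binds antioxidant response elements (AREs) together with small MAF proteins.

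The bases just before the start of 4 members are shown, because the results turn on the opposite values of Gclc and Gclm, on Gpx2, the most abundant member, and on Txnrd1. Each window holds the 250 bases before the start of the canonical transcript (GENCODE M39, GRCm39), read 5′ to 3′ on the strand of the gene. Capitals mark the ARE core, TGACNNNGC on either strand, so a core on the other strand appears here as its reverse complement. The windows are chr12:76842327-76842576 (minus strand) for Gpx2, chr9:77661547-77661796 (plus) for Gclc, chr3:122038876-122039125 (plus) for Gclm and chr10:82694763-82695012 (plus) for Txnrd1.
Gpx2: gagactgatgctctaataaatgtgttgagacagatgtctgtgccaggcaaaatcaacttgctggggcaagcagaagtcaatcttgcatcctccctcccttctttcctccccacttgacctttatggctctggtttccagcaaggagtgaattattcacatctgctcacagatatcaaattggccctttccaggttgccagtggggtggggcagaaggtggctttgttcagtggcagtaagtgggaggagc
Gclc: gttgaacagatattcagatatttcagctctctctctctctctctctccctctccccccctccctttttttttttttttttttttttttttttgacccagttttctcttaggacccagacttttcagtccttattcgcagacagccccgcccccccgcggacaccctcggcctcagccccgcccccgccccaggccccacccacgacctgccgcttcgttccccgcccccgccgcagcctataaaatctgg
Gclm: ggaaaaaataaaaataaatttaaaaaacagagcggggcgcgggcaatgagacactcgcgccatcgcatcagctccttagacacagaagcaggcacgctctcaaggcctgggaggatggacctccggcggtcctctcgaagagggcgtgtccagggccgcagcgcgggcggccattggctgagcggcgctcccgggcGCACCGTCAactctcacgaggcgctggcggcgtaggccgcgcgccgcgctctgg
Txnrd1: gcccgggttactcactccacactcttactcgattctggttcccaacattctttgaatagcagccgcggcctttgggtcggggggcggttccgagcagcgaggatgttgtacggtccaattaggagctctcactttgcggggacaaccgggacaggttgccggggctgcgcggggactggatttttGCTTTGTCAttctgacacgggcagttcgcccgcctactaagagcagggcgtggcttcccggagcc
The core was found in Gclm, with its first base 54 bases before the start, and in Txnrd1, 65 bases before it. It was not found in these windows of Gpx2, Gclc or the other 6 members. Thus 2 of 10 members held it, beside 9.74% of 21463 protein-coding windows of the same length. The pattern requires TGAC, so a run such as tgagtcagc, which the Srxn1 window holds, was not counted. An NF-kB consensus pattern of letters, not printed here, was searched on both strands. It was found in 0 of 10 members and in 4.24% of all windows. A match is a run of letters and not a measured binding site, and these letters may lie elsewhere around a gene.

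Values below are normalized CPM, that is, read counts scaled to a common library total after each total was corrected by a trimmed mean of M-values (TMM) factor. Library totals ran from 7286307 to 15832111 counts. PBS+PBS 4 and PBS+TNF 1 had the lowest scaling factors, 0.503 and 0.418, where the other libraries had 0.740 to 1.502. The summed Paneth cell markers took 430591 to 647418 CPM without that scaling, and stromal and red blood cell markers stayed under 2 CPM in every library. Goblet cell markers summed to 3219 to 10239 CPM. Stem cell markers summed to 278 to 2293 CPM and cycling markers to 13.4 to 208 CPM, both highest in DEX+TNF 4. The summed enterocyte markers lay between 211 and 405 CPM in PBS+PBS and between 37.6 and 167 CPM in PBS+TNF, without overlap. They ran over 186 to 409 CPM with DEX alone and over 122 to 989 CPM with DEX and TNF, where DEX+TNF 4 was the highest and also led the tuft cell markers at 857 CPM. Anpep made up over 50% of the enterocyte sum in 12 of 16 libraries, and ran over 62.3 to 362 CPM in PBS+PBS against 7.80 to 107 CPM with TNF after PBS. The other 9 enterocyte markers summed to 26.4, 40.2, 42.9 and 149 CPM in PBS+PBS and to 29.8, 32.2, 82.9 and 74.4 CPM in PBS+TNF, which overlapped. In bulk RNA, fewer cells of a type and less RNA per cell cannot be told apart.

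The DEX+TNF libraries fell apart in their response to TNF. Nfkbia, a gene that TNF induces through NF-kB, had 330 and 382 CPM in DEX+TNF 1 and 2 but 28.3 and 41.0 CPM in DEX+TNF 3 and 4. It had 277 to 337 CPM in PBS+TNF and 15.6 to 27.3 CPM in the libraries without TNF. DEX+TNF 3 is labelled as given TNF. Its other 5 TNF-induced genes examined (Tnfaip3, Cxcl10, Icam1, Ccl20 and Nos2) lay within the range of the libraries without TNF. DEX+TNF 4 stood above that range for all of the 6 genes but Cxcl10. As plain CPM, Nos2 was at 30.2 there, against at most 3.65 without TNF and 97.4 to 673 in PBS+TNF. Tnfaip3 was at 11.05 CPM against at most 6.44 without TNF and at least 24.6 in PBS+TNF. Icam1 and Ccl20 also lay between the same groups. The fold changes and counts of calls that rest on DEX+TNF are given with and without both libraries. Sgk1, a glucocorticoid target, was at 24.8 to 115 CPM in all 4 DEX+TNF libraries against at most 7.94 CPM in the groups without DEX. DEX+TNF 1 and 2 were also the closest pair of libraries within any group. Why DEX+TNF 3 and 4 differ from 1 and 2 was not tested.

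**Figure D1:**
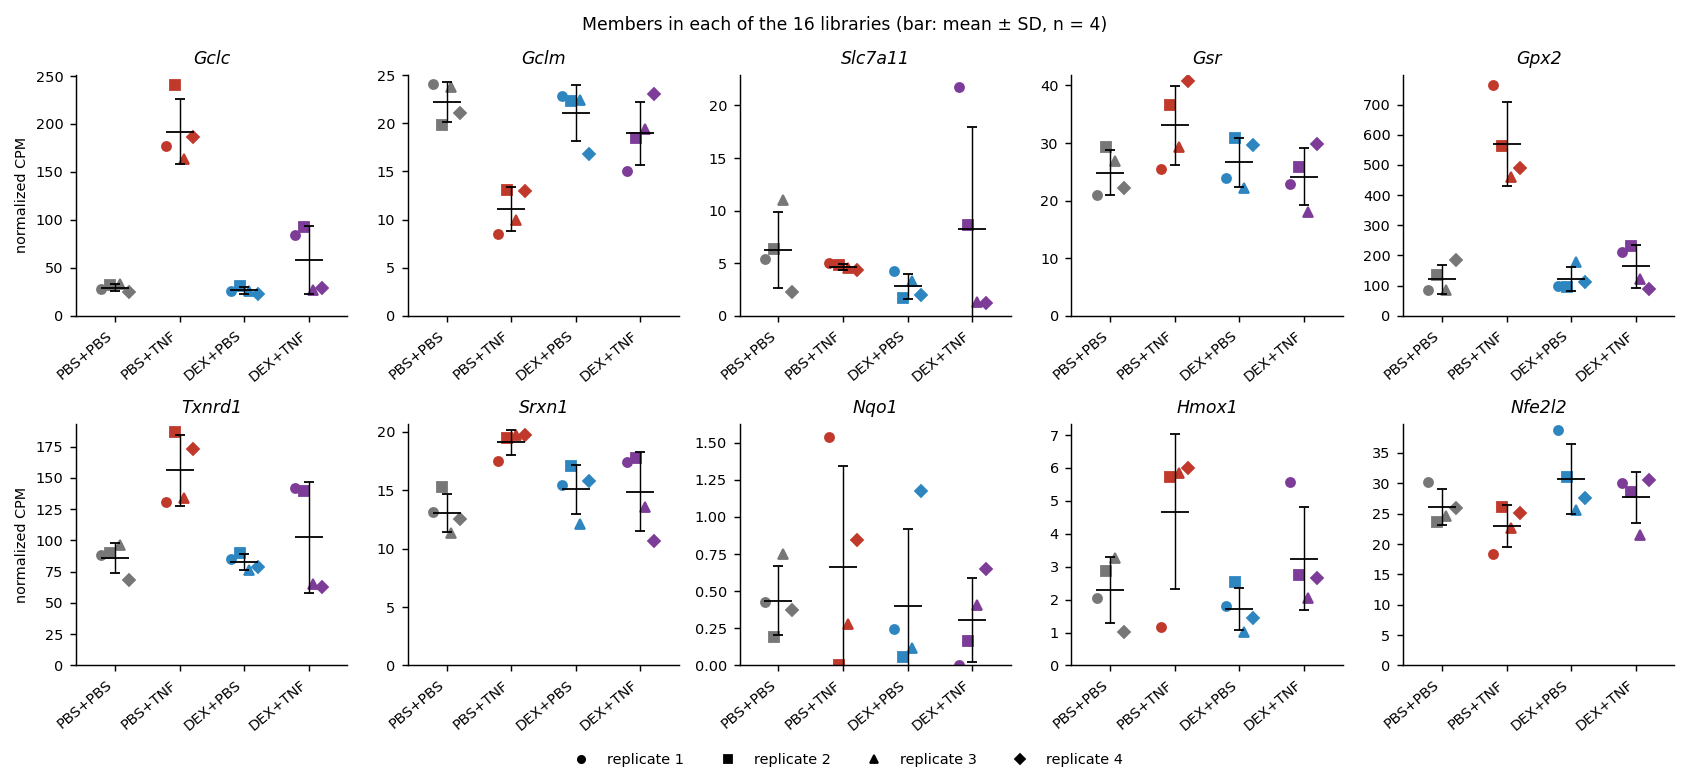
Normalized CPM (y axis, from 0) of the 10 members in each of the 16 libraries, by group. Symbols give the replicate number, the wide bar the mean and the thin bar ± 1 SD (n = 4, cut at 0). Gclc and Gpx2 in PBS+TNF lie above all other libraries, Gclm in PBS+TNF lies below them, and DEX+TNF 1 and 2 lie above DEX+TNF 3 and 4 for Gclc, Gpx2, Txnrd1 and Slc7a11.

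After PBS, Gclc, Gpx2 and Txnrd1 were higher with TNF and Gclm was lower, while Nfe2l2 itself differed by less than its error (PBS+TNF against PBS+PBS). This contrast chose the members, so their log2 fold changes are a description without a test. Of the 10 members, 3 were called higher and 1 lower by edgeR (adjusted p under 0.05), beside 7.15% of all tested genes called higher and 5.35% called lower. In 4 members all PBS+TNF libraries lay above all PBS+PBS libraries and in 1 all lay below, beside 10.8% and 8.64% of all tested genes. The median log2 fold change was 0.49 over the members and -0.03 over all tested genes. Since the members were picked on these values, nothing follows from the counts.

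Gclc (ENSMUSG00000032350, chromosome 9, 77661797 to 77701770, plus strand), the catalytic subunit, had 28.0, 31.7, 32.8 and 24.7 CPM in PBS+PBS 1 to 4 and 177, 241, 164 and 186 CPM in PBS+TNF 1 to 4. The groups were far apart, with means of 29.3 ± 3.66 and 192 ± 33.9 CPM (SD, n = 4). The log2 fold change was 2.71 (SE 0.35). In DEX+PBS it had 25.5, 31.5, 26.2 and 22.4 CPM, within or just under the range of PBS+PBS. In DEX+TNF it had 84.3 and 92.4 CPM in libraries 1 and 2, between the groups with and without TNF, and 26.95 and 28.9 CPM in libraries 3 and 4, at the level of PBS+PBS. All 4 DEX+TNF libraries were below all 4 PBS+TNF libraries.

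Gclm (ENSMUSG00000028124, chromosome 3, 122039126 to 122065061, plus strand), the modifier subunit, stood lower with TNF. It had 24.1, 19.85, 23.8 and 21.1 CPM in PBS+PBS 1 to 4 and 8.48, 13.1, 9.98 and 12.9 CPM in PBS+TNF 1 to 4. The means were 22.2 ± 2.07 and 11.1 ± 2.27 CPM (SD, n = 4), with no overlap and a log2 fold change of -0.99 (SE 0.20). DEX+PBS stood at 22.8, 22.4, 22.45 and 16.8 CPM. DEX+TNF 1 to 4 had 15.1, 18.4, 19.4 and 23.0 CPM, all above the highest PBS+TNF library, and the lowest of them was DEX+TNF 1.

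The ratio of Gclc to Gclm counts within a library needs no scaling between libraries. It was 1.16, 1.59, 1.38 and 1.17 in PBS+PBS and 20.8, 18.4, 16.4 and 14.4 in PBS+TNF. With DEX alone it was 1.12, 1.41, 1.17 and 1.34. In DEX+TNF it was 5.59 and 5.01 in libraries 1 and 2 and 1.39 and 1.26 in libraries 3 and 4. PBS+TNF thus held the 4 highest ratios, DEX+TNF 1 and 2 the next, and the 10 other libraries lay within 1.12 to 1.59. The rule does not name DEX alone against PBS+PBS, but it used the libraries of both groups, so this test is not independent of the choice of members. Its geometric mean was 1.25 against 1.32, a log2 difference of -0.07, with p = 0.6 (exact permutation test, two-sided, 70 assignments, smallest possible p 0.0286, n = 4).

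**Figure D2:**
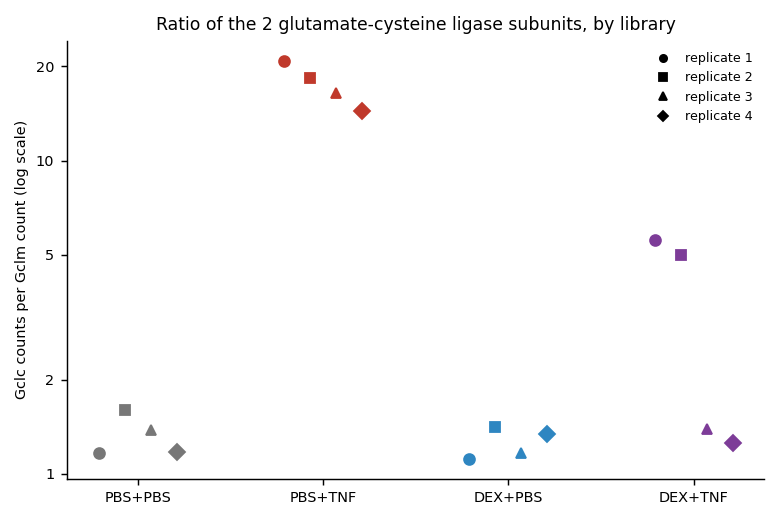
Counts of Gclc per count of Gclm in each library (y axis, log scale), by group, with the replicate number as symbol. PBS+TNF libraries lie between 14.4 and 20.8, DEX+TNF 1 and 2 at 5.59 and 5.01, and the other libraries between 1.12 and 1.59.

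Slc7a11 (ENSMUSG00000027737, chromosome 3, 49846975 to 50398070, minus strand), the cystine transporter, did not follow Gclc. It had 5.40, 6.38, 11.0 and 2.26 CPM in PBS+PBS and 5.01, 4.82, 4.50 and 4.36 CPM in PBS+TNF, which lay inside the range of PBS+PBS (log2 fold change -0.44, SE 0.67). DEX+PBS had 4.25, 1.69, 3.32 and 1.94 CPM. DEX+TNF 1 stood at 21.8 CPM, the highest of the 16 libraries, DEX+TNF 2 at 8.65 CPM, and DEX+TNF 3 and 4 at 1.33 and 1.25 CPM, the lowest. The DEX+TNF group thus held both ends of the range, with a mean of 8.25 ± 9.66 CPM (SD, n = 4).

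Gpx2 (ENSMUSG00000042808, chromosome 12, 76839107 to 76842326, minus strand) encodes an epithelial glutathione peroxidase of the gut, which reduces hydroperoxides with glutathione. It had 84.1, 134, 84.3 and 185 CPM in PBS+PBS 1 to 4 and 765, 563, 459 and 491 CPM in PBS+TNF 1 to 4. The means were 122 ± 48.1 and 569 ± 138 CPM (SD, n = 4) and the log2 fold change was 2.22 (SE 0.36). The highest library of each of these groups, PBS+PBS 4 and PBS+TNF 1, was the library with the low scaling factor; without both, the log2 fold change was 2.33. DEX+PBS had 98.8, 96.8, 179 and 113 CPM. DEX+TNF 1 and 2 had 212 and 233 CPM, above every library without TNF, while DEX+TNF 3 and 4 had 121 and 88.0 CPM, within the range of those libraries. Fntb, on the opposite strand, overlaps Gpx2. Its own level was 6.53 to 12.6 CPM in the 16 libraries, and whether the counting used strand is not given in the sources used here.

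Gsr (ENSMUSG00000031584, chromosome 8, 34142551 to 34188192, plus strand) encodes glutathione reductase, which returns oxidized glutathione to its reduced form. It had 20.9, 29.4, 26.9 and 22.2 CPM in PBS+PBS and 25.4, 36.7, 29.3 and 40.75 CPM in PBS+TNF, with overlapping ranges (log2 fold change 0.41, SE 0.21). The 8 libraries with DEX had 18.1 to 30.9 CPM. Its spread within groups was of the size of the differences between them.

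Txnrd1 (ENSMUSG00000020250, chromosome 10, 82669785 to 82733546, plus strand) encodes the cytosolic thioredoxin reductase, the enzyme that keeps thioredoxin reduced with NADPH. PBS+PBS 1 to 4 had 88.2, 89.8, 96.2 and 68.3 CPM and PBS+TNF 1 to 4 had 130.4, 186, 134 and 173 CPM. The groups did not overlap (85.6 ± 12.03 and 156 ± 28.0 CPM, SD, n = 4), and the log2 fold change was 0.86 (SE 0.27). DEX+PBS had 85.2, 89.9, 75.9 and 78.5 CPM. DEX+TNF 1 and 2, at 142 and 139.6 CPM, lay within the range of PBS+TNF, and DEX+TNF 3 and 4, at 64.9 and 63.1 CPM, were the lowest of the 16 libraries. For Gclc and Gpx2, in contrast, DEX+TNF 1 and 2 lay below all PBS+TNF libraries. The call of Txnrd1 in PBS+TNF against PBS+PBS held in 13 of 27 alternative settings and was lost without any 1 of the PBS+PBS libraries or of PBS+TNF 2, 3 and 4.

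Srxn1 (ENSMUSG00000032802, chromosome 2, 151947436 to 151957687, plus strand) encodes sulfiredoxin, which repairs overoxidized peroxiredoxins. It had 13.1, 15.3, 11.4 and 12.6 CPM in PBS+PBS and 17.5, 19.5, 19.8 and 19.7 CPM in PBS+TNF, without overlap but with a smaller log2 fold change of 0.55 (SE 0.19). It had 12.1 to 17.1 CPM in DEX+PBS and 17.4, 17.8, 13.6 and 10.7 CPM in DEX+TNF, where libraries 1 and 2 were again the higher ones.

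Hmox1 (ENSMUSG00000005413, chromosome 8, 75820241 to 75827217, plus strand) encodes haem oxygenase 1, which breaks down haem. It had 2.06, 2.87, 3.26 and 1.00 CPM in PBS+PBS and 1.16, 5.73, 5.84 and 5.99 CPM in PBS+TNF, so that PBS+TNF 1 lay inside the PBS+PBS range and the other PBS+TNF libraries above it (log2 fold change 1.03, SE 0.47). DEX+PBS had 1.03 to 2.53 CPM, and DEX+TNF had 5.57, 2.75, 2.04 and 2.64 CPM.

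Nqo1 (ENSMUSG00000003849, chromosome 8, 108113835 to 108129934, minus strand), a quinone reductase and a widely used NRF2 target, was near the limit of detection. It had 100 counts over all 16 libraries, from 0 to 1.54 CPM per library. PBS+TNF 2 and DEX+TNF 1 had 0 counts, which allows up to 0.181 and 0.242 CPM (3 counts, counting error only). A difference between groups was not detectable at this depth.

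Nfe2l2 (ENSMUSG00000015839, chromosome 2, 75504739 to 75534985, minus strand), the gene of NRF2 itself, had 30.2, 23.6, 24.6 and 26.0 CPM in PBS+PBS and 18.3, 26.0, 22.6 and 25.2 CPM in PBS+TNF. The ranges overlapped and the log2 fold change was -0.18 (SE 0.19). DEX+PBS had 38.7, 31.05, 25.7 and 27.6 CPM and DEX+TNF had 30.01, 28.5, 21.5 and 30.6 CPM. NRF2 activity is set mainly by protein stability, which these RNA counts do not measure. An antisense transcript, E030042O20Rik, overlaps it at 0.193 to 1.88 CPM.

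Compared per kilobase of canonical transcript, the levels of the members in PBS+PBS were led by Gpx2, with 115 ± 45.2 CPM per kilobase (SD, n = 4), and then Txnrd1, with 25.8 ± 3.62. Gsr (9.29), Gclc (8.50) and Nfe2l2 (7.26) followed, and their neighbouring ranges overlapped. Gclm stood below them at 3.50 CPM per kilobase. Srxn1 (1.82), Hmox1 (1.46), Slc7a11 (0.679) and Nqo1 (0.163) ended the order, each overlapping the next. In PBS+TNF, Gpx2 stood at 536 CPM per kilobase, followed by Gclc at 55.6 and Txnrd1 at 46.9, whose ranges overlapped. Gsr stood there at 12.4, and Gclm, at 1.75, stood below Srxn1 (2.65) without overlap. Hmox1 had a mean of 2.97, but its range of 0.733 to 3.80 took in that of Gclm.

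The effect of DEX on its own was read from DEX+PBS against PBS+PBS. The rule does not name this contrast, so it was tested. Its PBS+PBS and DEX+PBS libraries both enter contrasts that the rule used, so its p-values are not independent of the choice of members. None of the 10 members was called (edgeR adjusted p = 1.00 for each), beside 0.00847% of all tested genes, which is the gene Sgk1 alone. At an unadjusted p under 0.05 there were 0 members, beside 224 of all 11809 tested genes. DESeq2 called 0 members as well, and 7 genes over all. In 0 members did the libraries of the groups separate, beside 0.999% of all tested genes in the higher and 0.881% in the lower direction. Gpx2, Gclc, Gclm and Txnrd1 differed by log2 fold changes of 0.00 (SE 0.34), -0.15 (SE 0.33), -0.08 (SE 0.19) and -0.06 (SE 0.27). Slc7a11 had the lowest value, -1.21 (SE 0.69), with overlapping ranges.

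Under TNF, Gpx2 and Gclc were lower after DEX than after PBS and Gclm was higher (DEX+TNF against PBS+TNF). This contrast also chose the members and is given without a test. Of the 10, 0 were called higher and 2 lower, Gpx2 and Gclc, beside 0.22% of all tested genes called higher and 0.119% lower. The calls held in 12 and 11 of 27 alternative settings. Their log2 fold changes were -1.80 (SE 0.35) for Gpx2 and -1.72 (SE 0.34) for Gclc. Txnrd1 had -0.61 (SE 0.27), Srxn1 -0.37 (SE 0.19) and Hmox1 -0.55 (SE 0.47). Gclm had 0.76 (SE 0.20). Gpx2 and Gclc were lower and Gclm higher in DEX+TNF without overlap, beside 2.91% of all tested genes lower and 3.47% higher without overlap.

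Without DEX+TNF 3 and 4, which lacked the TNF level of Nfkbia, the differences of Gpx2 and Gclc from PBS+TNF were smaller in size but kept their sign, and 0 of the 10 members and 0% of 12223 tested genes were called. The log2 fold change was -1.35 (SE 0.37) for Gpx2, -1.11 (SE 0.23) for Gclc and 0.58 (SE 0.23) for Gclm. For Txnrd1 it was -0.15 (SE 0.22), under its error. Srxn1 had -0.12 (SE 0.21) and Hmox1 -0.21 (SE 0.55), each under its error. Slc7a11 had 0.82 (SE 0.68) with all libraries and 1.71 (SE 0.47) without DEX+TNF 3 and 4. Its sign rested on DEX+TNF 1, without which alone it was -0.32. At an unadjusted p under 0.05 there were 4 members, but this contrast chose the members, so nothing is read from that count. In DEX+TNF 1 and 2 Nfkbia was at the level of PBS+TNF or above, while Gclc and Gpx2 lay between PBS+TNF and the groups without TNF.

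**Figure D3:**
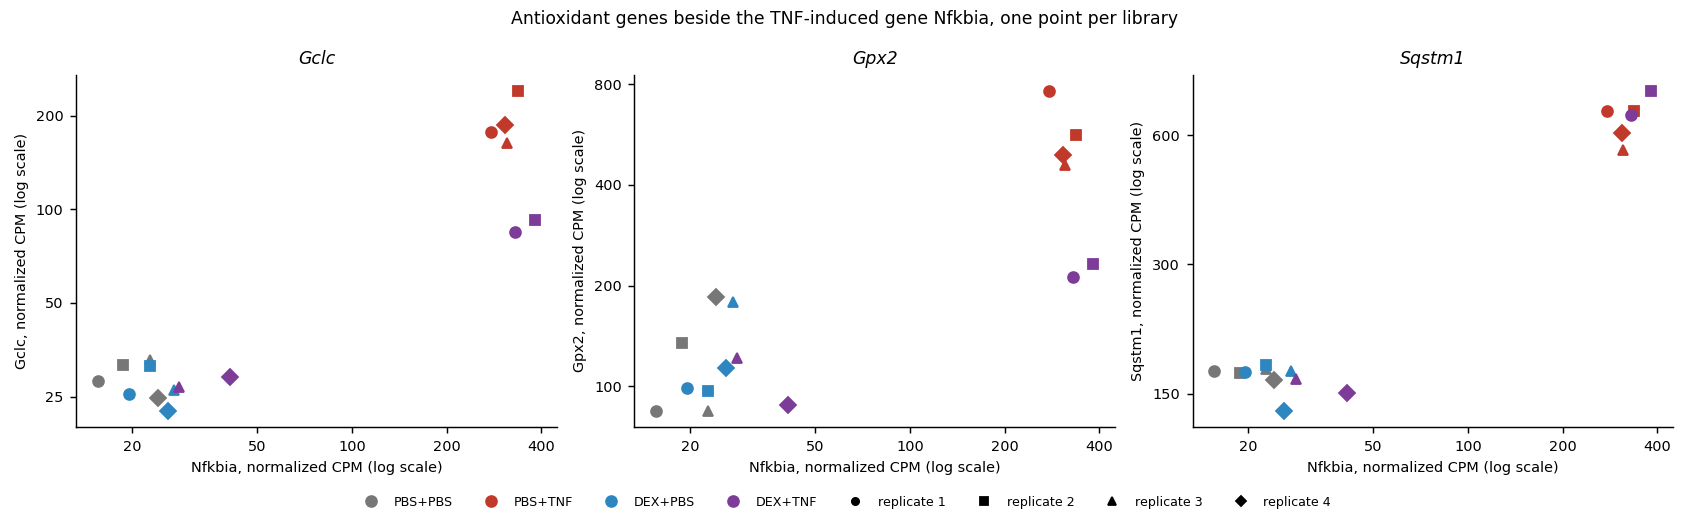
Normalized CPM of Gclc, Gpx2 and Sqstm1 (y axes, log scale) against normalized CPM of Nfkbia (x axis, log scale), one point per library, coloured by group, with the replicate number as symbol. DEX+TNF 1 and 2 reach the Nfkbia level of PBS+TNF, with Gclc at 84.3 and 92.4 CPM and Gpx2 at 212 and 233 CPM, under PBS+TNF, and Sqstm1 at 669 and 763 CPM, within or above it; DEX+TNF 3 and 4, with Nfkbia at 28.3 and 41.0 CPM, lie just to the right of the libraries without TNF (15.6 to 27.3 CPM) and within their range of Gclc, Gpx2 and Sqstm1.

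The TNF response after DEX, DEX+TNF against DEX+PBS, also belongs to the rule, which chose the members for a smaller response of Gpx2 and Gclc after DEX, and its values are a description. With all libraries the log2 fold change was 1.14 (SE 0.34) for Gclc, 0.42 (SE 0.34) for Gpx2, 0.31 (SE 0.27) for Txnrd1, -0.15 (SE 0.19) for Gclm and 1.59 (SE 0.70) for Slc7a11. Without DEX+TNF 1 alone, Slc7a11 was at 0.44. Of the members 0 were called by edgeR, beside 0.339% of all tested genes. DESeq2 called 1 member. By edgeR 2 members had an unadjusted p under 0.05, beside 1227 of all 11809 tested genes. Without DEX+TNF 3 and 4, 3 members were called, beside 10.5% of 12223 tested genes. Nothing is read from these counts. The 3 were Gclc at 1.74 (SE 0.21), Slc7a11 at 2.49 (SE 0.48) and Txnrd1 at 0.77 (SE 0.21). Gpx2 had 0.87 (SE 0.34).

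The interaction, the TNF response after DEX minus that after PBS, is the contrast the rule names, so its values too are a description. It was -1.80 (SE 0.49) on the log2 scale for Gpx2, -1.57 (SE 0.47) for Gclc, 0.84 (SE 0.27) for Gclm and 2.03 (SE 0.97) for Slc7a11. For Slc7a11 it was 0.88 without DEX+TNF 1 alone. edgeR called 0 members and 0% of all tested genes, with 4 members and 642 genes at an unadjusted p under 0.05 and 9 genes called by DESeq2. Without DEX+TNF 3 and 4 the values were -1.36 (SE 0.46), -0.96 (SE 0.29), 0.66 (SE 0.29) and 2.94 (SE 0.63), and edgeR again called 0 members and 0 genes.

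**Figure D4:**
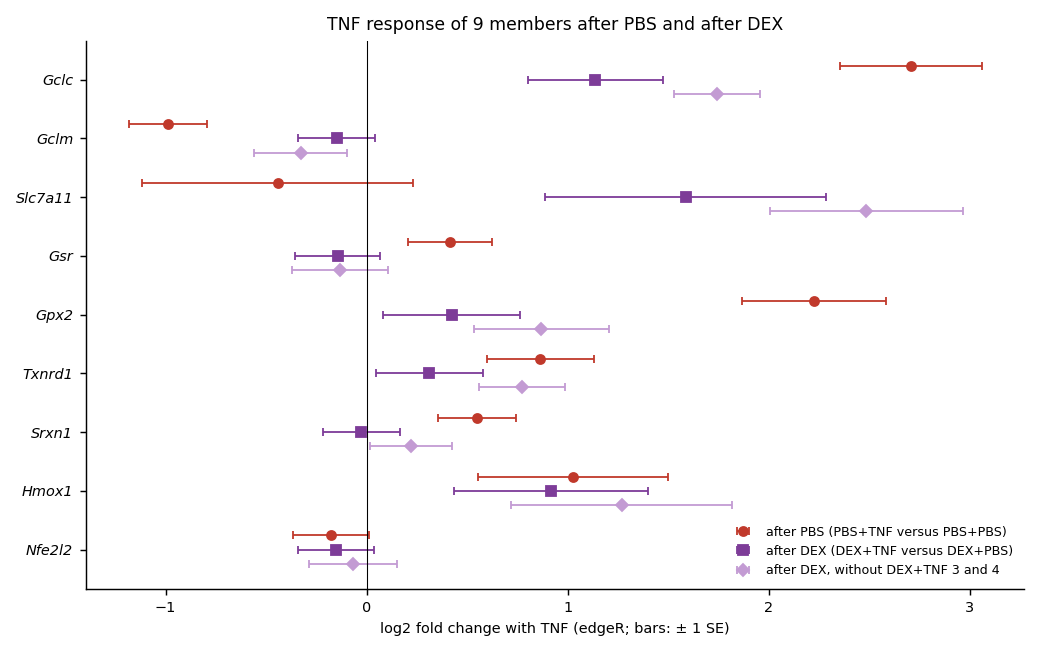
Log2 fold change with TNF (x axis, edgeR, bars ± 1 SE) of 9 members after PBS, after DEX with all libraries, and after DEX without DEX+TNF 3 and 4. Nqo1 is left out for its low counts. Gclc stands at 2.71, 1.14 and 1.74, Gpx2 at 2.22, 0.42 and 0.87, and Slc7a11 at -0.44, 1.59 and 2.49.

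A wider list of 86 other genes of glutathione metabolism, the thioredoxin system and NRF2 control was drawn up, of which 76 were tested. The rule does not name these genes, but the list was drawn up with earlier results of these data known. Its tests use the same libraries, so their p-values are not independent of that choice. In PBS+TNF against PBS+PBS 4 rose and 2 fell, and 70 did not pass the test. That is 4 of 76 higher and 2 of 76 lower, beside the 7.15% and 5.35% of all tested genes. The median log2 fold change of the list was -0.21 and 24 of 76 genes were above 0.

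Of the 10 regulators and partners of NRF2, all tested, 3 rose. Sqstm1 (p62), an autophagy receptor that binds KEAP1, rose with TNF, with 161 to 171 CPM in the PBS+PBS and 554 to 685 CPM in the PBS+TNF libraries (log2 1.92, SE 0.42, edgeR adjusted p = 0.0069). It had 669 and 763 CPM in DEX+TNF 1 and 2, within or above the PBS+TNF range, and 163 and 151 CPM in DEX+TNF 3 and 4. Maff, a small MAF partner, rose by 1.92 on the log2 scale (SE 0.49, adjusted p = 0.016), with means of 5.35 ± 1.72 and 20.4 ± 1.64 CPM over 4 libraries each. Mafk rose by 0.89 (SE 0.28, adjusted p = 0.049), from 19.9 ± 4.47 to 36.7 ± 9.025 CPM, and PBS+TNF 1, at 23.7 CPM, lay within the PBS+PBS range. The call of Sqstm1 held in 27 of 27 alternative settings. That of Maff held in 24 of 27, and was lost without PBS+PBS 2 and without PBS+PBS 4 and PBS+TNF 1 together (adjusted p = 0.060). That of Mafk held in 11 of 27, and was lost without any 1 PBS+PBS library or any 1 of PBS+TNF 2, 3 and 4. Keap1 (0.28, SE 0.18), Bach1 (0.03, SE 0.19), a repressor at AREs, and Mafg (0.80, SE 0.29, adjusted p = 0.079) did not pass. In the fit without DEX+TNF 3 and 4, Mafg did pass (0.80, SE 0.27, edgeR adjusted p = 0.046).

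Among the 9 other genes of glutathione synthesis, import and breakdown none was called. Gss, which completes glutathione, had a log2 fold change of 0.13 (SE 0.29). The 17 tested glutathione S-transferases, which attach glutathione to other compounds, had 0 calls and a median of -0.53, with 1 of 17 above 0. In the fit without DEX+TNF 3 and 4, Gstm4 was called lower (-1.40, SE 0.44, edgeR adjusted p = 0.036). The 3 tested other glutathione peroxidases had 0 calls, with 0.30 (SE 0.48) for Gpx1 and -0.21 (SE 0.46) for Gpx4.

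Of the 14 genes of thioredoxin, peroxiredoxin and glutaredoxin, 1 fell. Glrx, glutaredoxin 1, fell by 1.63 on the log2 scale (SE 0.50, edgeR adjusted p = 0.042), with 11.1 ± 2.30 CPM in PBS+PBS and 3.48 ± 1.18 CPM in PBS+TNF; the call was lost without any 1 library of these groups and held in 13 of 27 alternative settings. Of the 3 tested superoxide dismutases and catalase, Cat, the catalase that degrades hydrogen peroxide, fell by 0.78 (SE 0.18, adjusted p = 0.010), with 37.7 ± 5.39 CPM in PBS+PBS and 22.0 ± 2.73 CPM in PBS+TNF. Sod2, a mitochondrial enzyme induced by TNF in many cells, had -0.11 (SE 0.19). Of the enterocyte markers, the sum was lower in PBS+TNF through Anpep, while the other 9 overlapped between the groups, as given above. The part of this difference in the lower values of Glrx, Cat, Gclm and the glutathione S-transferases was not tested. Akr1b8, an aldo-keto reductase, was called at 0.0693 ± 0.0909 against 0.818 ± 0.349 CPM (SD, n = 4), too few counts for a fold to be read.

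**Figure D5:**
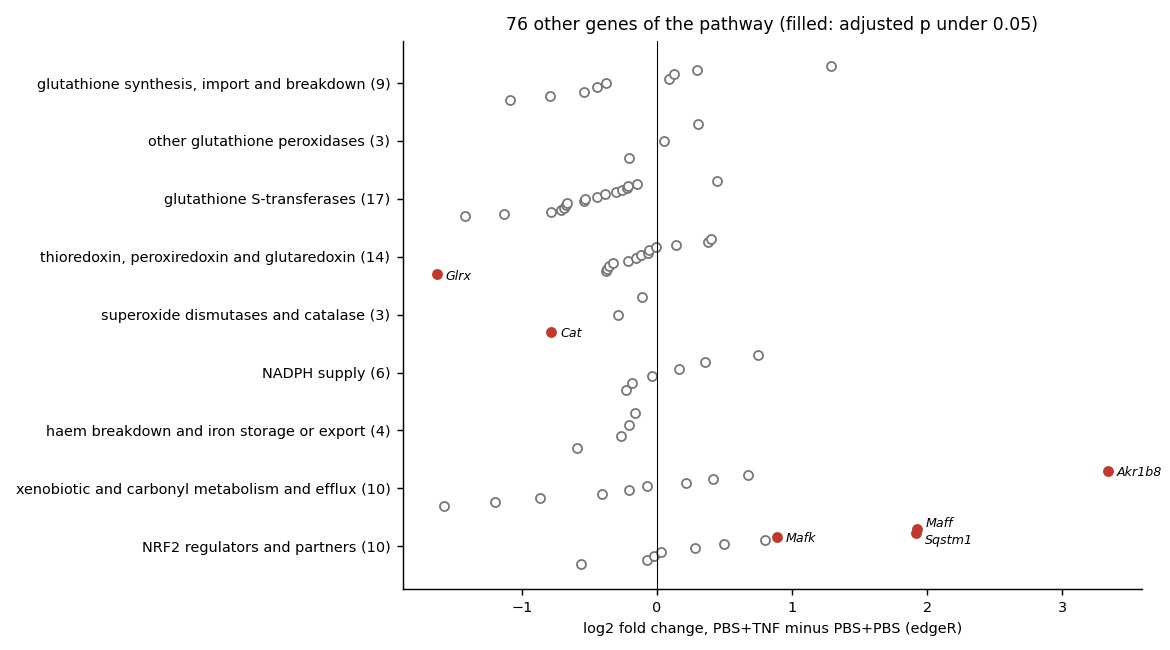
Log2 fold change of PBS+TNF minus PBS+PBS (x axis, edgeR) of the 76 tested genes of the wider list, by gene group with the number tested; filled points have an adjusted p under 0.05. Sqstm1, Maff, Mafk and Akr1b8 lie to the right as called genes, Cat and Glrx to the left, and 16 of 17 glutathione S-transferases lie left of 0.

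In the other comparisons edgeR called none of the 76 genes. At an unadjusted p under 0.05 there was 1 of 76 in DEX+PBS against PBS+PBS, beside 224 of all 11809 tested genes. In DEX+TNF against PBS+TNF there were 9, beside 1408. DEX+TNF against DEX+PBS had 6, beside 1227, and the interaction had 2, beside 642. DESeq2 called 0, 1, 2 and 0 of the 76, in the same order. Nothing is read from these counts. Without DEX+TNF 3 and 4, edgeR called 0 of the 76 in DEX+TNF against PBS+TNF (10 at an unadjusted p under 0.05) and 0 in the interaction (6 at that p). In DEX+PBS against PBS+PBS it also called 0, with 5 at that p. The number of all genes at that p is not given for this fit, so nothing is read from these counts. For DEX+TNF against DEX+PBS this fit called 12, 6 of 76 in each direction, beside 7.2% of 12223 tested genes higher and 3.32% lower. It kept only the 2 DEX+TNF libraries in which TNF-induced genes were high, which were also the closest pair within any group. Its calls in this comparison are thus a description. The 6 that rose were Chac1 (log2 fold change 3.72), Maff (2.27), Sqstm1 (2.14), Abcc1 (1.28), Slc3a2 (1.27) and Mafk (0.89). The 6 that fell were Abcc3 (-2.88), Gstm3 (-2.14), Glrx (-1.85), Gstm1 (-1.30), Gsto1 (-1.22) and Prdx6 (-1.16).

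Slc3a2 is the heavy chain that pairs with Slc7a11, and Chac1 degrades glutathione. Like Slc7a11, both were higher in DEX+TNF 1 and 2 than in DEX+TNF 3 and 4. For Slc7a11, however, DEX+TNF 2, at 8.65 CPM, lay under PBS+PBS 3, at 11.0 CPM. Slc3a2 had 180 and 157 CPM in DEX+TNF 1 and 2, 46.5 and 61.2 CPM in DEX+TNF 3 and 4, and 58.4 to 81.9 CPM in DEX+PBS. Its ranges were 85.0 to 133 CPM in PBS+PBS and 92.1 to 165 CPM in PBS+TNF, which took in DEX+TNF 2. DEX+PBS lay below PBS+PBS without overlap, beside 0.881% of all tested genes. Without DEX+TNF 3 and 4 the log2 fold change of DEX+PBS against PBS+PBS was -0.71 (SE 0.21), not called. Chac1 had 76.2 and 72.2 CPM in DEX+TNF 1 and 2, 1.43 and 0.549 CPM in DEX+TNF 3 and 4, and 14.9 to 30.9 CPM in PBS+TNF. In DEX+PBS it had 0.728, 1.27, 20.04 and 1.48 CPM, so that DEX+PBS 3 stood apart.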

How the data were processed

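RNA sequencing counts of 16 libraries were analysed, 4 per group, grouped and numbered from the sample labels; p-values measure the spread between these mice. The authors deposited raw read counts per Ensembl gene for 55414 genes. Per the labels, stranded mRNA libraries were aligned with STAR 2.7.10a to mm39. The counting program, its use of strand and its handling of reads that match several genes are not given in the sources used here, which leaves overlapping genes uncertain. Names, transcripts and sequence came from GENCODE M39 on GRCm39, which held 54749 of the identifiers.

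Genes were filtered with filterByExpr, scaled with TMM factors and tested with edgeR 4.0.16 in R 4.3.3, by its robust quasi-likelihood fit of all 16 libraries with 1 mean per group and 5 contrasts. P-values were two-sided and adjusted by the Benjamini-Hochberg method over 11809 genes, with a threshold of 0.05. Mean and spread are over 4 libraries. The SE is the log2 fold change divided by the square root of F. The scripts were tested on simulated data. Marker sums are plain CPM.

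The 10 members and all lists were chosen with earlier results of these data known. Called pathway genes were named if their average level reached 1 CPM. Others were named for their part in the pathway or for their abundance. Akr1b8 and the genes called without DEX+TNF 3 and 4 fall outside these criteria and were named after their values were seen. Txnip, Txn1, Gpx1 and Me1 were not called and are described for the pattern of their values, also after these were seen. As alternatives, the fit was repeated with DESeq2 1.42.0, with upper-quartile or median-of-ratios scaling or TMM factors from all but the Defa genes, with no filter or with a minimum mean of 5 CPM, on the groups compared alone, with a replicate block, at a threshold of 0.01, without each library in turn, without DEX+TNF 3 and 4 together, and, added after the data were seen, without PBS+PBS 4 and PBS+TNF 1 together.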

Additional observations from a re-analysis of the deposited data

Results flagged for a closer look

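Each of the 10 members was examined in each group of 4 libraries, 40 groups in all, for a library whose gap to the nearest other, as a share of the range of the group, exceeded the critical value of the Dixon test. Chance alone gives about 1 in 20 such groups, and 4 were found. Gclm in DEX+PBS 4 was the lowest of its group at 16.8 CPM, where the others had 22.4 to 22.8 CPM. Nqo1 in DEX+PBS 4 was the highest at 1.17 CPM against 0.0603 to 0.243 CPM, on few counts. Hmox1 in PBS+TNF 1 was the lowest at 1.16 CPM against 5.73 to 5.99 CPM. Srxn1 in PBS+TNF 1 was the lowest at 17.5 CPM against 19.5 to 19.8 CPM.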

How the results depend on the processing

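In PBS+TNF against PBS+PBS, which chose the members, the log2 fold change ran from 2.04 to 2.47 for Gpx2, from 2.59 to 2.78 for Gclc, from -1.10 to -0.90 for Gclm and from 0.75 to 0.93 for Txnrd1 over 27 alternatives. The calls of Sqstm1, Cat, Maff, Glrx and Mafk there held in 27, 26, 24, 13 and 11 of them. The 6 pathway calls there became 3 without a low-count filter, 1 at an adjusted p under 0.01, 3 without PBS+PBS 4 and PBS+TNF 1 together, and 3 to 7 when single libraries were left out. Without DEX+TNF 3 and 4 together, whose spread enters the shared fit, they became 9. That fit also called 5 of the 10 members there, Srxn1 among them, beside 2166 of 12223 tested genes, against 1476 of 11809 in the main fit. The 2 members called in DEX+TNF against PBS+TNF became 0 with the groups compared alone, 0 at 0.01, 0 without DEX+TNF 3 and 4 together, 0 without PBS+PBS 4 and PBS+TNF 1 together, and 0 to 2 when single libraries were left out; the replicate block gave 1. DESeq2 called 3. Replicate numbers were not used as pairs in the main fit. Deviations of same-numbered libraries correlated from -0.365 to 0.504 (median 0.115, 24 pairs). Those of other-numbered libraries correlated from -0.564 to 0.486 (median -0.061, 72 pairs). Whether same-numbered libraries share anything was not tested. DESeq2 called 1 pathway gene in DEX+TNF against PBS+TNF and 1 member and 2 pathway genes in DEX+TNF against DEX+PBS, where edgeR called 0. In that last comparison leaving out single libraries gave 0 to 1 members and 0 to 2 pathway genes, and leaving out DEX+TNF 3 and 4 together gave 3 and 12. Over all genes, DEX+TNF against PBS+TNF gave 40 calls, from 0 with the groups compared alone to 274 with DESeq2, and DEX+TNF against DEX+PBS gave 40, up to 1286 without DEX+TNF 3 and 4 together. In DEX+PBS against PBS+PBS the log2 fold change of Gpx2, near 0, changed sign under median-of-ratios (-0.0100) and upper-quartile scaling (-0.000759), a mean of at least 5 CPM (-0.0338), DESeq2 (-0.00999) and the groups compared alone (-0.00817), and ran from -0.24 to 0.26 without single libraries; Gclm ran from -0.13 to 0.0171 and Nqo1 from -1.72 to 0.38. None of these was past the threshold. The cause of these changes was not tested. Counts limit Nqo1, and Hmox1 and Slc7a11 rest on few CPM.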

Other observations

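The genes that supply NADPH to both the glutathione and the thioredoxin reductase were not called in PBS+TNF against PBS+PBS (0 of 6 by edgeR). Taldo1 (108 and 91.9 CPM), Idh1 (112 and 126 CPM) and G6pdx (16.4 and 16.0 CPM), given as the PBS+PBS and the PBS+TNF mean, had log2 fold changes of -0.23 (SE 0.22), 0.16 (SE 0.24) and -0.03 (SE 0.20). Me1, the malic enzyme, varied widely within groups, from 0.600 to 27.0 CPM in PBS+PBS and from 0.867 to 32.9 CPM in DEX+PBS. The ferritin chain Fth1, which stores iron, was the most abundant gene of the wider list per kilobase and had 741 ± 135 CPM in PBS+PBS and 663 ± 257 CPM in PBS+TNF (SD, n = 4).

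Txnip, a thioredoxin-binding protein, had 73.6, 168, 199 and 145 CPM in PBS+PBS and 340, 219, 403 and 272 CPM in DEX+PBS, without overlap (log2 fold change 1.08, SE 0.29), but was not called by edgeR (adjusted p = 1.00). Of the 76 tested pathway genes, 2 were higher and 1 lower without overlap in this comparison, beside 0.999% and 0.881% of all tested genes. DEX+TNF, with 262 to 384 CPM in all 4 libraries, lay above PBS+TNF, with 160 to 230 CPM. The thioredoxin gene Txn1 and the glutathione peroxidase gene Gpx1 stood high in the libraries with the lowest scaling factors. Txn1 had 308 CPM in PBS+PBS 4 and 370 CPM in PBS+TNF 1, against 82.4 to 182 CPM in the other 14 libraries, and Gpx1 had 212 and 250 CPM, against 49.6 to 116 CPM.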
